A study of Homo sapiens with 40 samples.

Results

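The genes described here are KLK2, KLK3 and KLK4, the prostate kallikreins, in LNCaP cells that were resistant or sensitive to MDV3100. They were found as the probe sets that the array's annotation pairs with KLK2, KLK3 or KLK4 alone, and each gene was read from its brightest probe set by the mean over all arrays, with its other probe sets as a check. The 3 genes stand among 19775 genes named on the array, of which 11853 had a probe set past the filter on low signal and were tested. All 3 members passed it, on 3 of 4 probe sets for KLK2, 3 of 3 for KLK3 and 5 of 5 for KLK4.

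LNCaP is an established human prostate cancer cell line whose growth depends on androgen. The groups were 7 clones labelled resistant and given MDV3100, the same 7 clones given DMSO, 3 control lines labelled sensitive and given MDV3100, and the same control lines given DMSO. MDV3100, also called enzalutamide, is an antiandrogen and was given at 10 µM for 24 h, and its solvent DMSO at 0.1%. All lines, control lines included, grew in RPMI-1640 with 10% fetal calf serum and were plated 3 days before treatment. The clones are numbered 1, 9, 10, 14, 15, 19 and 24, and each is a line of its own. Controls 1, 2 and 3 have the titles D+E-, D+R- and M+R-, whose meaning the labels do not give. How the clones were selected is not given in the sources used here. Every line and treatment had 2 arrays, numbered 1 and 2, and the arrays of each number are called set 1 and set 2. This gave 14 arrays for each treatment of the clones and 6 for each treatment of the control lines.

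Kallikreins are secreted serine proteases that prostate epithelium releases into seminal fluid. KLK3 is prostate-specific antigen, the serum marker of prostate cancer, which liquefies the seminal clot. KLK2 is its closest relative and can activate its precursor, and KLK4 is another protease of prostate epithelium that can activate other kallikreins. Androgen drives the transcription of KLK2 and KLK3 through response elements near their starts, so these genes are common readouts of androgen signalling, and antiandrogens are known to lower them in sensitive LNCaP cells.

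The genes lie side by side on chromosome 19. In RefSeq (GRCh38.p14) KLK3 spans chr19:50854915-50860764 and KLK2 spans chr19:50873439-50880567, both on the plus strand, with 12.7 kb between them. KLK4 spans chr19:50906351-50911395 on the minus strand, 25.8 kb beyond KLK2, and KLK15, another kallikrein, ends 21.3 kb before KLK3. The 250 bases before the RefSeq starts of KLK2 (chr19:50873189-50873438) and KLK3 (chr19:50854665-50854914) are shown because these genes are known to carry androgen response elements there. Both are on the plus strand, and capitals mark matches of GNACANNNNGTNC, a relaxed form of the palindrome of the androgen response element, and of TTTATAG, close to the start and rich in A and T.
KLK2: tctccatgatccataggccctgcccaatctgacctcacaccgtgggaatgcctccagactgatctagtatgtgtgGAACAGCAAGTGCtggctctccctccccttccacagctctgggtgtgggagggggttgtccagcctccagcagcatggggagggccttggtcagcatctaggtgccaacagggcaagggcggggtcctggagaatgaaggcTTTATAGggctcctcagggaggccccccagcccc
KLK3: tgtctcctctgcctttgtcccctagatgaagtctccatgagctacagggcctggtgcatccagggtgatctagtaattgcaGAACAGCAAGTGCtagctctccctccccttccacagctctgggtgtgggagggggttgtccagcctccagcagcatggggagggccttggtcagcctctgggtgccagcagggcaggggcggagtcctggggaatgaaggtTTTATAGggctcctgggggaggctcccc
The longer match reads GAACAGCAAGTGC in both windows, first base at -175 in KLK2 and -169 in KLK3, and TTTATAG starts at -34 and -28, counted back from the base before the start as -1. In KLK3 the half-site AGAACA starts at -170, so it overlaps the longer match, and KLK2 has no AGAACA in its window. Matches were sought on both strands of 300-base windows, from 250 bases before to 50 after each start, and the longer pattern was chosen after these sequences were seen. Of 35116 such windows of RefSeq genes, 2.19% held this palindrome, 14.79% AGAACA and 3.19% TTTATAG. The windows of KLK2 and KLK3 were identical at 239 of 309 aligned columns (77.3%) and shared an unbroken run of 80 bases. KLK4 has a pair of annotated windows, and neither held a match of these patterns. Their identity to the KLK2 and KLK3 windows was 40.6% to 44.1%. A match is a description of letters and not a binding site.

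The deposited values are linear MAS5 signals, in which every array had been scaled to the same trimmed mean, and differences are given on log2(signal + 16). Levels of the 3 genes cannot be set against each other, since each comes from another probe set. Luminal epithelial markers were present throughout, with all 7 past the filter and summed signals of 8839 to 15507 over the arrays of all groups. Markers of other cell types were low, with no signal above 28.8 for basal epithelium, 8.6 for leukocytes and 50.7 for neuroendocrine cells, while COL1A1 of the fibroblast list reached 347.9. The labelled identity of the lines did not carry over between the sets. With each gene centred within a set, 0 of 10 lines in set 2 correlated best with the line of the same label in set 1, and the correlation with its own label ran between -0.43 and 0.02. Controls 2 and 3 of set 2 correlated best with clones 1 and 14 of set 1 (r = 0.556 and 0.436). Clones 14, 15, 19 and 24 of set 2 correlated best with control 1 of set 1 (0.502 to 0.597). The remaining lines of set 2 correlated best with a line of their own group. Whether labels were exchanged in one of the sets was not tested, so cultures of the same label in set 1 and set 2 may not be the same line or group. For that reason the sets were fitted apart, with MDV3100 and DMSO arrays of a line and number as a pair. Since no label says that equal lines of set 1 and set 2, or the lines themselves, were grown apart, a p-value here covers the spread between these samples alone, and that spread may be technical. In bulk RNA of this kind, fewer cells making a transcript and less transcript per cell cannot be told apart.

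KLK2 fell with MDV3100 in the set 1 control lines. On the brightest probe sets it had the largest mean response of the 3 members in set 1, in both clones and control lines. Its mean in those clones was -0.73 on 210339_s_at and -0.58 on 209855_s_at, against -0.63 for KLK4 on its brightest probe set. In the set 1 clones, KLK2 signal under MDV3100 was 2496.1, 123.8, 126.9, 196.5, 1397.6, 2148.8 and 2030.0 in clones 1, 9, 10, 14, 15, 19 and 24, against 2091.4, 828.7, 770.8, 963.6, 1717.6, 1938.2 and 2075.2 in their DMSO cultures. In the set 1 control lines it was 445.2, 647.9 and 572.4 under MDV3100 in controls 1, 2 and 3, against 1665.1, 3263.8 and 2005.4 in DMSO. The treated and DMSO cultures of these control lines did not overlap, and the share of all genes without overlap was not counted. Among the clones, clones 9, 10 and 14 were far lower with MDV3100, and clones 1, 15, 19 and 24 stood close to their DMSO values. The mean response of the set 1 clones was -1.03 ± 0.37 on the log2 scale (SE, n = 7), with limma's adjusted p 0.174, and clones 9, 10 and 14 gave -2.60, -2.46 and -2.20. The mean response of the set 1 control lines was -1.98 ± 0.17 (SE, n = 3), with adjusted p 0.000306 in limma, and only 2 of the other tested genes had a more negative one.

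In that control comparison 1.18% of all tested genes were called, and 1 of the 3 members, KLK2. In the set 1 clones 1.9% of all genes were called and 0 of the 3 members. The call of KLK2 in the set 1 control lines was lost with no filter on low signal (adjusted p 0.127), with a variance that follows intensity (adjusted p 0.115) and in the fit of both sets with line as the block (-1.50, adjusted p 0.148). It held in the fit of both sets with the replicate block (-1.50, adjusted p 0.0176). That fit has no term for line or set, and it counts the 2 cultures of a label as independent. The ratio of 3' to 5' actin signal, a sign of RNA integrity, averaged 5.12 ± 1.28 with MDV3100 and 3.79 ± 0.53 with DMSO in the set 1 control lines (SD, n = 3 each), and its part in the response was not tested. With MDV3100 it was 4.26, 6.59 and 4.50 in controls 1, 2 and 3, against 4.08, 3.18 and 4.12 with DMSO, and control 2 had the widest difference. Control 2 also had the most negative response of the 3 control lines for KLK2 (-2.30), KLK3 (-1.20) and KLK4 (-1.59).

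In set 2 control 1 was the one culture with a far lower KLK2 level under MDV3100. The lowest, median and highest KLK2 signals in the set 2 clones were 2080.8, 2709.0 and 3412.0 under MDV3100, against 2414.6, 2857.0 and 3179.4 in DMSO. In the set 2 control lines KLK2 was 397.4, 2511.1 and 1190.5 under MDV3100 in controls 1, 2 and 3, against 2033.9, 2359.3 and 2163.0 in DMSO. The cultures labelled control 1 were low with the drug in both sets, while control 2 of set 2 was at its DMSO value and control 3 lay between. The set 2 cultures labelled clones 9, 10 and 14 had responses of 0.25, 0.11 and -0.56.

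The mean KLK2 response in set 2 was -0.09 ± 0.11 in the clones (SE, n = 7), with limma's adjusted p 0.828, and -1.02 ± 0.33 in the control lines (SE, n = 3), with limma's adjusted p 0.331. Without control 2 the control value was -1.58 (adjusted p 0.000234), and without control 1 it was -0.38 (adjusted p 0.684). Both fits rest on 2 control lines, which give little of a gene's own spread. Of all genes, limma called 0% in the set 2 clones, where 1218 genes had an unadjusted p under 0.05, and 0.118% in the set 2 control lines, with 0 of the 3 members in either.

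Over all 20 line-and-number cultures, KLK2 responses left their widest gap, 0.93 on the log2 scale, between -1.78 and -0.85. The 7 cultures below the gap were clones 9, 10 and 14 of set 1, the 3 control lines of set 1, and control 1 of set 2. The other 13 cultures ran between -0.85 and 0.25 and hold 11 of the 14 clone cultures.

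**Figure D1:**
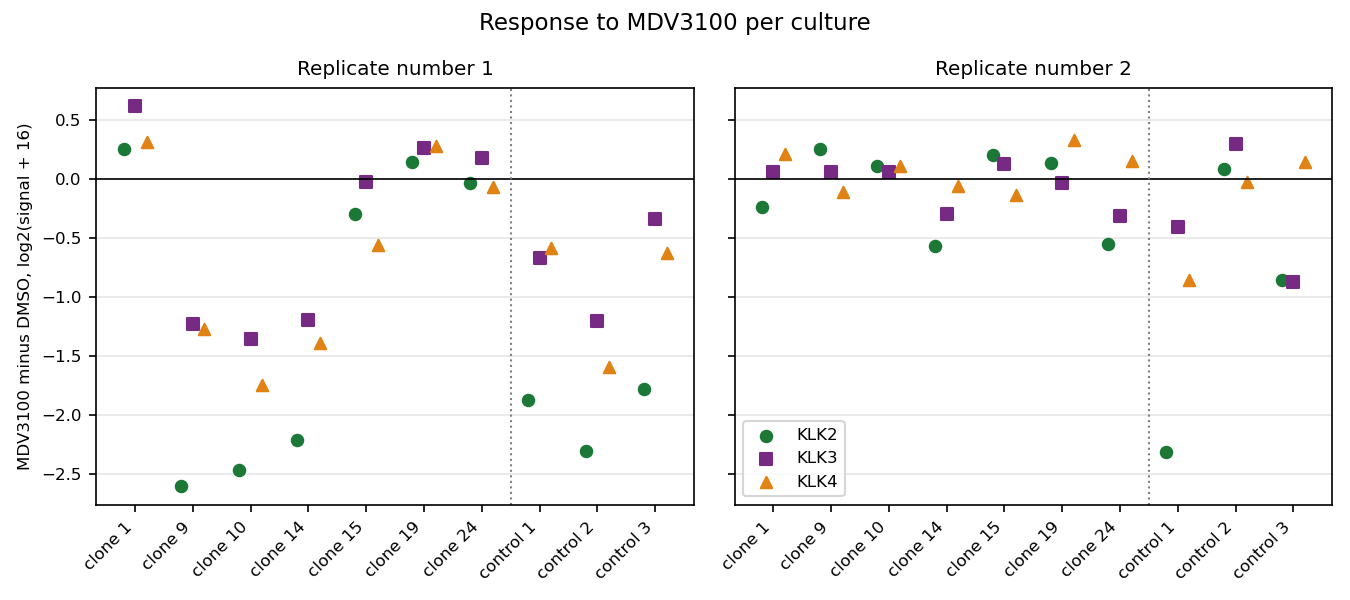
Response to MDV3100 (MDV3100 minus DMSO, log2(signal + 16)) of KLK2, KLK3 and KLK4 in each culture, on the brightest probe set of each gene. Clones are left and control lines right of the dotted line, with 1 panel for each replicate number. Each gene and culture has 1 point. In set 1, clones 9, 10 and 14 and the 3 control lines lie low, KLK2 lowest in each; in set 2 the clones lie near 0, and control 1 has a KLK2 response of -2.31.

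KLK3 responded less than KLK2, and no mean response passed the test. In set 1, KLK3 signal under MDV3100 was 506.6, 215.9 and 209.5 in clones 9, 10 and 14, against 1209.7, 577.4 and 500.7 in their DMSO cultures. It was 2262.0, 1581.2 and 2802.9 under MDV3100 in controls 1, 2 and 3, against 3599.8, 3659.4 and 3551.4 in DMSO. Clones 1, 15, 19 and 24 had responses between -0.02 and 0.62. The mean KLK3 response in set 1 was -0.39 ± 0.24 in the clones (SE, n = 7), with limma's adjusted p 0.393, and -0.74 ± 0.19 in the control lines (SE, n = 3), with limma's adjusted p 0.100. Without control 3 the control value was -0.93, with adjusted p 0.00172, and without control 2 it was -0.50. Each of these fits rests on 2 control lines, which give little of a gene's own spread. In set 2 the KLK3 response was between -0.31 and 0.13 in every clone, with a mean of -0.05 ± 0.07 (SE, n = 7) and limma's adjusted p 0.855. It was -0.41, 0.30 and -0.87 in controls 1, 2 and 3 of set 2, with a mean of -0.33 ± 0.20 (SE, n = 3) and limma's adjusted p 0.725. That mean was -0.64 without control 2 and -0.0555 without control 3.

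KLK4 had low values with MDV3100 in the same set 1 cultures. Its set 1 signal under MDV3100 was 127.9, 144.1 and 200.7 in clones 9, 10 and 14, against 331.6, 518.5 and 551.2 in their DMSO cultures. In controls 1, 2 and 3 of set 1 it was 291.6, 170.4 and 266.6 under MDV3100, against 444.6, 544.5 and 419.2 in DMSO. On this brightest probe set clone 15 lay between, with 567.7 under MDV3100 and 845.2 in DMSO. The mean KLK4 response in set 1 was -0.63 ± 0.24 in the clones (SE, n = 7), with limma's adjusted p 0.194, and -0.93 ± 0.21 in the control lines (SE, n = 3), with limma's adjusted p 0.0647. The control value passed the test without control 1 (-1.11, adjusted p 0.0371), without control 3 (-1.09, adjusted p 0.00109) and on the probe set 1555737_a_at (-1.02, adjusted p 0.0490), and it was -0.60 without control 2 (adjusted p 0.229). Fits without a control line rest on 2 lines. Without control 1, limma gave all 3 members the same SE (0.29), a spread shared over genes and not that of KLK4 itself. In set 2 the means were 0.07 ± 0.07 in the clones (SE, n = 7), with limma's adjusted p 0.739, and -0.24 ± 0.19 in the control lines (SE, n = 3), with limma's adjusted p 0.831. Control 1 was the one set 2 culture with a low KLK4 response on the brightest probe set, at -0.85, and the others ran between -0.14 and 0.34. Control 3 of set 2 was at 0.15 there and between -0.46 and -0.05 on the other probe sets of KLK4.

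**Figure D2:**
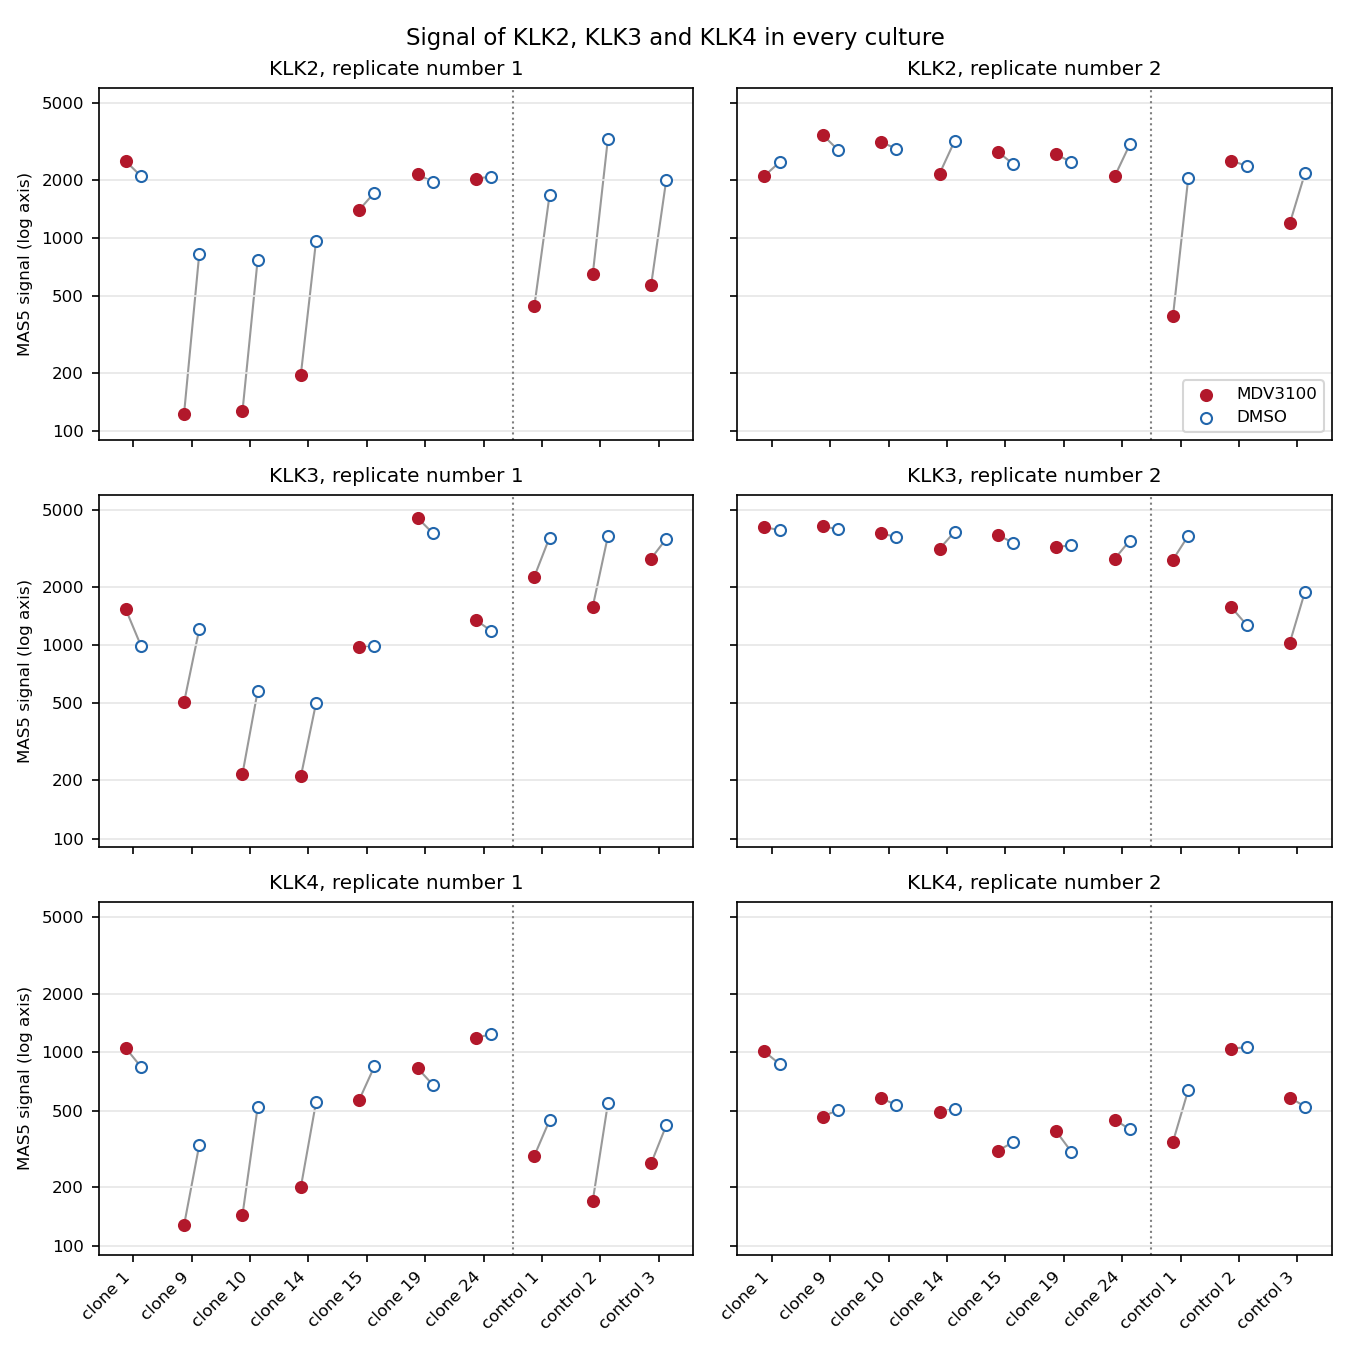
MAS5 signal (log axis) of KLK2, KLK3 and KLK4 under MDV3100 (filled) and in DMSO (open) in every culture, joined for each line, with clones left and control lines right of the dotted line and replicate numbers in columns. The lowest KLK2 signals are those of clones 9, 10 and 14 of set 1 under MDV3100, at 123.8, 126.9 and 196.5.

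The 3 genes were set side by side within each culture, on their brightest probe sets. KLK2 had the lower response of KLK2 and KLK3 in 10 of 10 cultures of set 1, with a median difference of -1.06, and in 5 of 10 of set 2, with a median of -0.10. Against KLK4, KLK2 was the lower in 8 of 10 and 7 of 10 cultures of set 1 and set 2. This order depends on the probe set. In clones 9, 10 and 14 of set 1, KLK2 on 209855_s_at was -1.66, -1.36 and -1.36. KLK3 on 204582_s_at was -1.37, -1.63 and -1.45 there. Across the 10 cultures of set 1 the responses of KLK2 and KLK3 correlated at r = 0.96, those of KLK2 and KLK4 at 0.91 and those of KLK3 and KLK4 at 0.96. In set 2 the same correlations were 0.66, 0.72 and 0.13. These correlations are descriptions across cultures that share lines, and the responses of the 3 genes come from the same arrays.

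Whether the clones responded differently from the control lines was tested on the responses themselves. The KLK2 response of the clones exceeded that of the control lines by 0.96 ± 0.61 in set 1 (SE, 95% interval -0.36 to 2.27, limma's adjusted p 0.436). In set 2 the difference was 0.93 ± 0.38 (95% interval 0.11 to 1.76, limma's adjusted p 0.392). The differences of KLK3 were 0.34 and 0.28 and those of KLK4 were 0.30 and 0.32 in set 1 and set 2, with adjusted p between 0.592 and 0.738 in limma. All 6 differences were positive, and 0 passed the test, while 0.00844% of all genes passed in set 1 and 0% in set 2, where limma gave 1307 genes an unadjusted p under 0.05. Single lines moved these values. In set 1, the KLK3 difference was 0.11 without control 2 and 0.18 without clone 1, and the KLK4 difference was -0.0302 without control 2. In set 2, the KLK2 difference was 0.29 without control 1, the KLK3 difference 0.0087 without control 3, and the KLK4 difference 0.0112 without control 1.

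By their labels, KLK3 levels set clones and control lines apart in opposite directions in the 2 sets. In DMSO, KLK3 signal was 995.5, 1209.7, 577.4, 500.7, 995.8, 3792.9 and 1185.0 in clones 1, 9, 10, 14, 15, 19 and 24 of set 1, against 3599.8, 3659.4 and 3551.4 in controls 1, 2 and 3. In set 2 it was 3920.3, 3963.3, 3624.0, 3856.2, 3383.8, 3287.2 and 3475.2 in clones of the same labels, against 3674.5, 1274.1 and 1890.5 in the control lines. Clone 19 was the one clone of set 1 at the level of the control lines, and control 1 the one control of set 2 within the range of the clones. The 20 DMSO values left their widest gap, 0.79 on the log2 scale, between 1890.5 and 3287.2, with 8 cultures below it and 12 above.

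The DMSO level of KLK3 in clones minus control lines was -1.74 ± 0.48 in set 1 (SE, limma's adjusted p 0.0545) and 0.81 ± 0.24 in set 2 (SE, limma's adjusted p 0.0532). Neither passed the test, where 6.13% of all genes did in set 1 and 10.3% in set 2, and so did 0 of the 3 members. Without clone 19 the set 1 value was -2.04 (adjusted p 0.00179), and without control 1 the set 2 value was 1.22 (adjusted p 0.00274), while without control 2 it was 0.46. The difference between the sets, set 2 minus set 1, was 2.55 ± 0.57 (SE) with limma's adjusted p 0.00619, a test chosen after the values were seen, in which 23.1% of all genes and 1 of the 3 members passed. Under the same labels, KLK3 levels in DMSO in set 2 were between 0.867 and 7.70 times those of set 1 in the 7 clones, higher in 6 of them, and between 0.348 and 1.02 times in the 3 control lines. The ratio of 3' to 5' actin signal in DMSO averaged 4.06 in set 1 and 3.14 in set 2 in the clones. It averaged 3.79 and 3.46 in the control lines, and its part in these levels was not tested.

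Under MDV3100 the KLK3 signal had a lowest, median and highest value of 209.5, 980.7 and 4548.4 in the clones of set 1, against 2262.0, 1581.2 and 2802.9 in controls 1, 2 and 3. In set 2 these values were 2791.3, 3710.2 and 4127.5 in the clones, against 2768.6, 1567.1 and 1028.4 in the control lines. KLK3 was higher in the set 2 clones by 1.09 ± 0.25 (SE, limma's adjusted p 0.0213), 1 of the 3 members called where 19.6% of all genes were. Without control 3 the value was 0.75 (adjusted p 0.0736), and without control 2 it was 1.05 (adjusted p 0.0740). With both sets fitted together it was -0.15, with limma's adjusted p 0.839 with line as the block and 0.906 with the replicate block, so the call was lost and the direction turned. In set 1 the difference was -1.39 ± 0.77 (SE, limma's adjusted p 0.230), where 9.03% of all genes and 0 of the 3 members were called. Set 2 minus set 1 was 2.48 ± 0.89 (SE, limma's adjusted p 0.0374), where 34.9% of all genes and 1 of the 3 members passed.

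**Figure D3:**
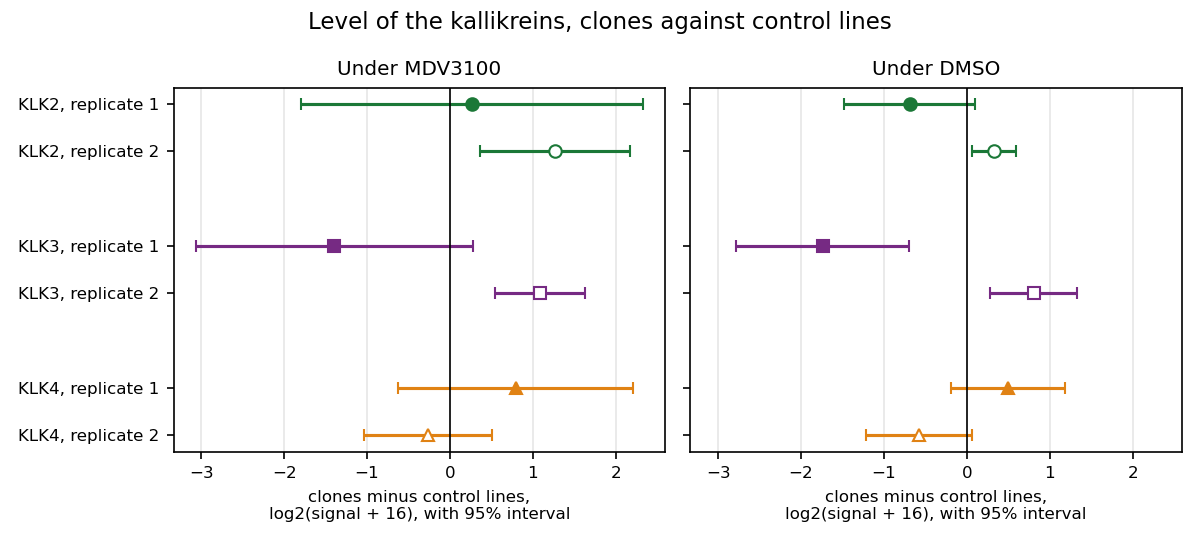
Level of KLK2, KLK3 and KLK4 in clones minus control lines on log2(signal + 16), under MDV3100 (left) and in DMSO (right), with 95% intervals from limma; filled marks are set 1 and open marks set 2. KLK3 lies at -1.74 in set 1 and 0.81 in set 2 in DMSO, and KLK4 lies on the other side of 0 in each set.

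KLK2 and KLK4 levels passed no test between clones and control lines. In DMSO, KLK2 in clones minus control lines was -0.69 ± 0.36 in set 1 (SE, limma's adjusted p 0.253) and 0.33 ± 0.12 in set 2 (SE, limma's adjusted p 0.0852). The set 1 value was -0.41 without control 2. The 3 lowest KLK2 levels in DMSO, 770.8 to 963.6, were those of clones 9, 10 and 14 of set 1, and the other 17 cultures ran between 1665.1 and 3263.8 with no wide gap. Under MDV3100 the KLK2 difference was 0.27 ± 0.95 in set 1 (SE, limma's adjusted p 0.869) and 1.26 ± 0.41 in set 2 (SE, limma's adjusted p 0.0515). The sign of the set 1 value turned without clone 1 (-0.048) and without clone 19 (-0.0123). The set 2 value was 1.88 (adjusted p 0.0446) without control 2 and 0.57 without control 1. KLK4 in DMSO had a lowest, median and highest signal of 331.6, 679.8 and 1241.4 in the set 1 clones, against 444.6, 544.5 and 419.2 in controls 1, 2 and 3. In set 2 these values were 305.5, 503.4 and 869.4 in the clones, against 636.3, 1062.5 and 524.2 in the control lines. The groups overlapped in both sets, with differences of 0.50 ± 0.31 in set 1 (SE, limma's adjusted p 0.340) and -0.58 ± 0.29 in set 2 (SE, limma's adjusted p 0.180). Set 2 minus set 1 was 1.02 ± 0.40 for KLK2 (SE, limma's adjusted p 0.0682) and -1.07 ± 0.46 for KLK4 (SE, limma's adjusted p 0.0885). Under MDV3100 the KLK4 difference was 0.80 ± 0.65 in set 1 and -0.26 ± 0.35 in set 2 (SE), with limma's adjusted p 0.417 and 0.597. The set 2 value was 0.14 without control 2, and 0.21 and 0.48 on the probe sets 233854_x_at and 231782_s_at.

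The responses themselves were also compared between the sets. Set 2 minus set 1, the KLK2 response differed by 0.94 ± 0.44 in the clones (SE, limma's adjusted p 0.398) and by 0.96 ± 0.45 in the control lines (SE, limma's adjusted p 0.813). The KLK4 response differed by 0.71 ± 0.28 in the clones (SE, limma's adjusted p 0.307) and by 0.69 ± 0.32 in the control lines (SE, limma's adjusted p 0.813). In these tests limma called 0.0422% of all genes in the clones and 0% in the control lines, with 652 genes of the control comparison at an unadjusted p under 0.05, and 0 of the 3 members in either.

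For KLK2 and KLK3 the other probe sets past the filter gave the same sign for the strong responses and differed for weak ones. Those of KLK4 differed more. The size of strong responses varied between probe sets. In clones 9, 10 and 14 of set 1, KLK2 was -2.60, -2.46 and -2.20 on 209854_s_at. It was -1.90, -1.73 and -1.85 on 210339_s_at and -1.66, -1.36 and -1.36 on 209855_s_at. KLK3 in control 1 of set 2 was -0.41, -0.36 and -0.96 on 231629_x_at, 204582_s_at and 204583_x_at. For KLK2 the sign of the response matched that of the brightest probe set, 209854_s_at, in 18 of 20 cultures on 210339_s_at and in 17 of 20 on 209855_s_at. The fourth, 1555545_at, averaged a signal of 2.68 and was below the filter. For KLK3 the sign matched 231629_x_at in 20 of 20 cultures on 204582_s_at and 18 of 20 on 204583_x_at. For KLK4 it matched 224062_x_at in 12 to 15 of 20 cultures on the other 4 probe sets, which correlated with it at 0.77 to 0.89 over responses. In clones 14 and 24 of set 2 the KLK4 response was -0.05 and 0.16 on 224062_x_at. On the other 4 probe sets it was 0.23 to 0.99 in these clones. In clone 15 of set 1 it was -0.56 on 224062_x_at and -0.11 to 0.40 on the other 4. KLK2 and KLK3 are close in sequence, and how far a probe set of either also reads the other was not tested.

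**Figure D4:**
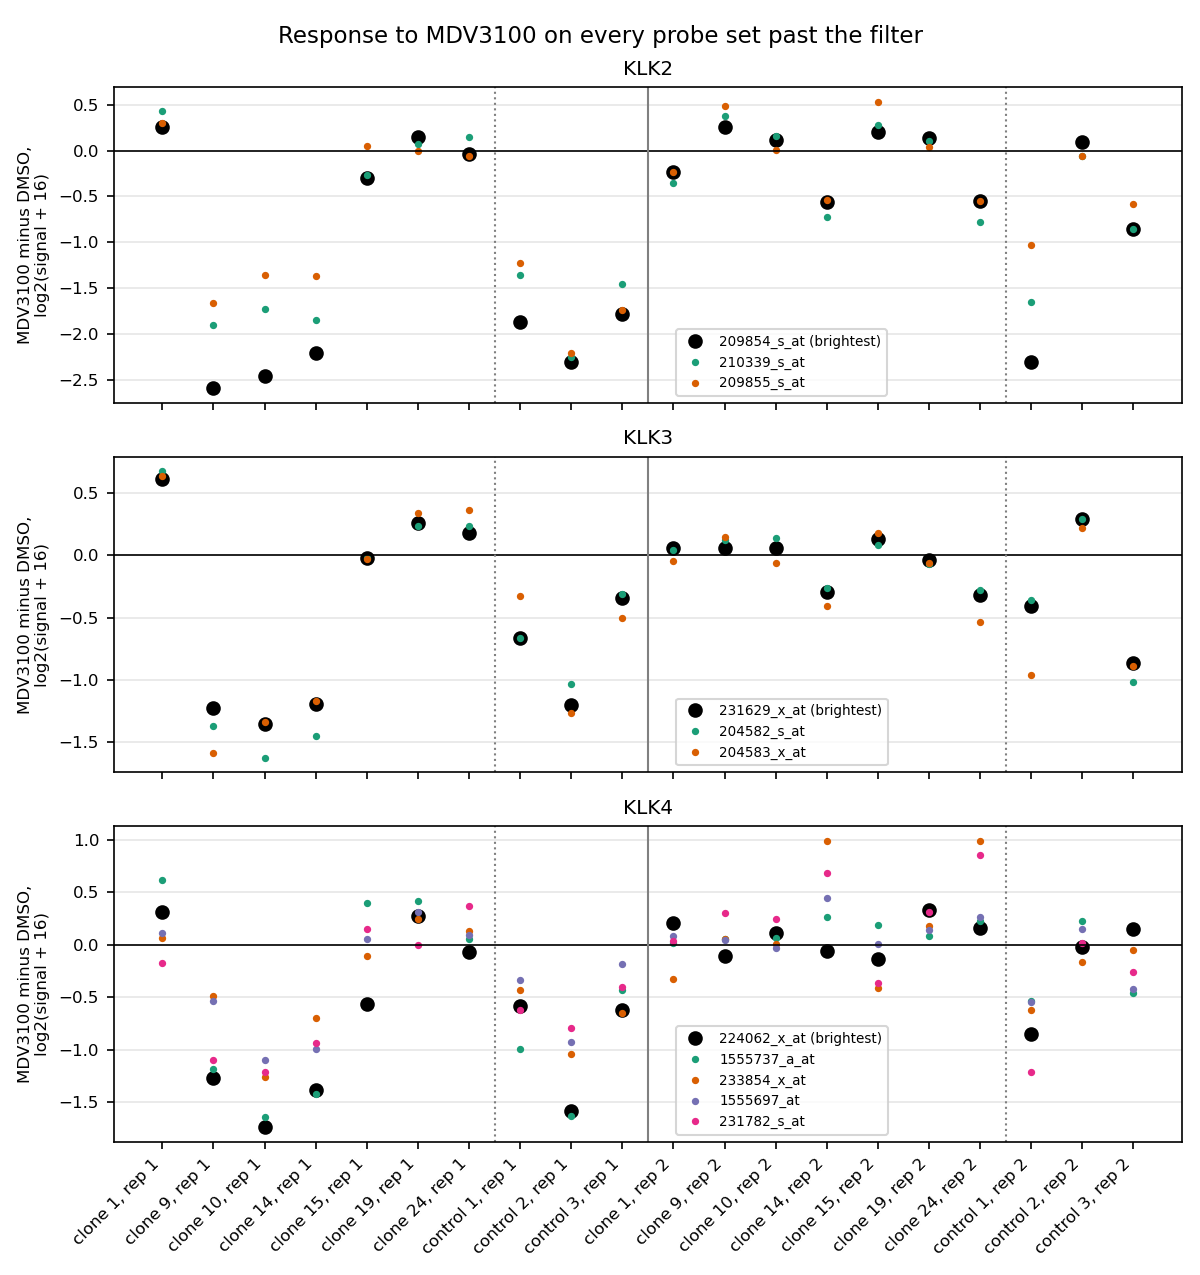
Response to MDV3100 (log2(signal + 16)) on every probe set past the filter, in the 20 cultures, with the brightest probe set as the large black point; the solid line parts replicate numbers and dotted lines part clones (left) and control lines (right). Clones 9, 10 and 14 of set 1 lie below 0 on every probe set of the 3 genes, while KLK4 probe sets scatter on both sides of 0 in set 2.

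Among the other kallikreins, 11 of 12 had a named probe set and 2 passed the filter. KLK1, tissue kallikrein, had a median signal of 14.7 over the 40 arrays, and KLK15, the neighbour of KLK3, one of 60.0. The KLK15 response was -0.26 ± 0.13 in the clones of set 1 (SE, limma's adjusted p 0.288) and -0.70 ± 0.16 in their control lines (SE, limma's adjusted p 0.0699). KLK15 in DMSO was lower in the set 1 clones, with a difference of -0.53 ± 0.11 (SE, limma's adjusted p 0.0229), where 6.13% of all genes were called. In set 2 the difference was 0.20 ± 0.15 (SE, limma's adjusted p 0.355).

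The genes whose responses were most like those of the members included SLC45A3, C1orf116 and TMPRSS2 from the list of androgen-induced genes described next. By Pearson's r over the 20 cultures, GPR158, a G protein-coupled receptor, came first for KLK2 (r = 0.957), followed by ZBTB16, a zinc finger repressor, SLC45A3, the prostate protein prostein, C1orf116, the specifically androgen-regulated gene, and TMPRSS2, a membrane serine protease (0.949 to 0.935). KLK2 was itself the gene most like KLK3 (0.890), ahead of ZBTB16, KLK15, MAOA, a mitochondrial amine oxidase, and C1orf116 (0.846 to 0.839). For KLK4 the order was GPR158 (0.903), KLK2, SLC45A3, C1orf116 and KLK3 (0.885 to 0.830). The TMPRSS2 response in set 1 was -0.45 ± 0.17 in the clones (SE, limma's adjusted p 0.193) and -1.42 ± 0.19 in the control lines (SE, limma's adjusted p 0.00488). FKBP5, a chaperone induced by androgen, gave -0.29 ± 0.07 in the clones (SE, limma's adjusted p 0.0528) and -0.65 ± 0.16 in the control lines (SE, limma's adjusted p 0.0910).

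The wider list of androgen-induced genes had 23 of 28 members measured. In set 1 it had 4 genes lower and 0 higher by the test in the clones, with a median of -0.34, where 1.9% of all genes were called and their median was 0.01. In the control lines of set 1 it had 8 lower and 0 higher, with a median of -0.57, where 1.18% of all genes were called and their median was -0.01. TRPM8, an ion channel, fell in both, by 1.66 in the clones (limma's adjusted p 3.32e-05) and by 2.27 in the control lines (limma's adjusted p 0.0197). In set 2 the list had 0 of 23 called in the clones, with a median of 0.03, and 2 lower in the control lines, TRPM8 and MAF, a transcription factor, with a median of -0.68, where 0% and 0.118% of all genes were called. Between clones and control lines under MDV3100, 9 of the 23 were higher in the clones of set 2 and 0 lower, with a median of 0.69 against -0.07 for all genes, of which 19.6% were called. In set 1, 1 was higher and 0 lower, where 9.03% of all genes were called.

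The other lists had these calls in responses, where 1.9% of all genes were called in the set 1 clones and 1.18% in the set 1 control lines. Of the 3 measured genes of prostate secretion, MSMB, a protein of seminal plasma, fell by 1.02 in the set 1 clones (limma's adjusted p 0.00715), with no other call of the list in any response. Of 4 measured inhibitors and substrates of kallikreins, IGFBP3, a binding protein of growth factors that KLK3 can cleave, was 0.68 ± 0.09 higher with MDV3100 in the set 1 clones (SE, limma's adjusted p 0.00624). Of the 4 measured transcription factors that act with androgen signalling, SPDEF, an ETS factor of prostate epithelium, fell by 0.85 in the set 1 control lines (limma's adjusted p 0.0471), and no other passed in a response. These calls do not set the groups apart. Uncalled control responses were -0.72 in set 1 and -0.51 in set 2 for MSMB, 0.60 and 0.66 for IGFBP3, and -0.84 in set 2 for SPDEF. In the set 2 clones the responses were 0.21, 0.24 and -0.11 for MSMB, IGFBP3 and SPDEF.

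Levels of these lists also differed between clones and control lines. FN1, fibronectin, was lower in DMSO in the set 1 clones, with a difference of -0.996 ± 0.251 (SE, limma's adjusted p 0.0439), where 6.13% of all genes were called. In the set 2 clones FN1 was higher, by 1.26 in DMSO (limma's adjusted p 0.0278) and by 1.12 under MDV3100 (limma's adjusted p 0.0179), where 10.3% and 19.6% of all genes were called. SPINT1, an inhibitor of serine proteases, was lower in the set 2 clones, with differences of -0.71 in DMSO (limma's adjusted p 0.0425) and -0.91 under MDV3100 (limma's adjusted p 0.0266). Genes of prostate secretion were called under MDV3100 in both sets. In set 1, where 9.03% of all genes were called, ACP3, prostatic acid phosphatase, differed by -2.02 (limma's adjusted p 0.0324) and AZGP1, a secreted zinc-binding glycoprotein, by 1.77 (limma's adjusted p 0.0194). In set 2 MSMB differed by 2.19 (limma's adjusted p 0.0328). Of the transcription factors, SPDEF was higher by 0.96 (limma's adjusted p 0.0185) and FOXA1, a pioneer factor, differed by -0.81 (limma's adjusted p 0.0386) in set 1 under MDV3100, and SPDEF differed by -0.71 in set 2 in DMSO (limma's adjusted p 0.0284). COL1A1, a fibroblast collagen, was lower under MDV3100 in the set 1 clones (limma's adjusted p 0.0125), and FOLH1, prostate-specific membrane antigen, was lower there in the set 2 clones, with a difference of -0.46 (limma's adjusted p 0.0224).

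Levels in DMSO had other neighbours than responses. With each set's mean subtracted, the genes most like KLK3 over the 20 DMSO cultures were GDF15, a secreted stress cytokine (r = 0.920), SLC9D1, ETV1, LCP1 and CCDC149 (0.910 to 0.891). ETV1 is an ETS transcription factor that LNCaP overexpresses through a chromosome rearrangement, and LCP1 bundles actin. In set 1, ETV1 had DMSO signals of 0.3, 43.5, 15.9, 3.3, 11.5, 871.2 and 58.8 in clones 1, 9, 10, 14, 15, 19 and 24, against 1293.3, 1162.7 and 1344.5 in controls 1, 2 and 3. In set 2 its lowest, median and highest signals were 738.6, 1514.8 and 1746.1 in the clones, against 1367.1, 0.3 and 5.4 in the control lines. The cultures low in ETV1 were those low in KLK3, clone 19 of set 1 and control 1 of set 2 included among the high ones. KLK2 levels were most like ZNF132 (r = 0.864), and KLK4 levels most like HECTD4 (r = 0.873). Between members, the DMSO levels correlated at 0.631 for KLK2 and KLK3, 0.235 for KLK2 and KLK4 and -0.282 for KLK3 and KLK4, as descriptions over cultures that share lines.

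**Figure D5:**
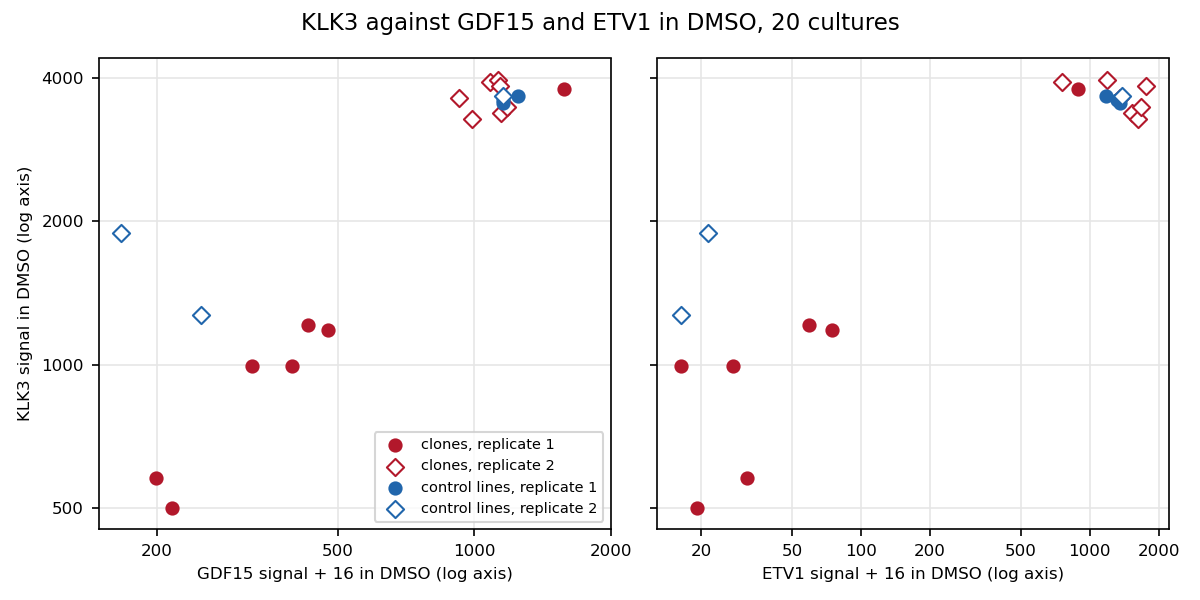
KLK3 signal in DMSO against GDF15 (left) and ETV1 (right) signal plus 16 in DMSO, both axes log, 1 point for each of 20 cultures; clones are red, control lines blue, set 1 filled and set 2 open. Cultures with ETV1 signals of 58.8 or less have KLK3 signals of 1890.5 or less, and clone 19 of set 1 and control 1 of set 2 lie with the high ones.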

How the data were processed

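RNA of 10 LNCaP lines was measured on 40 expression arrays. The values deposited by the authors are signal intensities per probe set. The submitters' processing notes name MAS5 for them, with no version in the sources used here. With the highest and lowest 2% of probe sets left out, every array had a mean of 150.0, so no further scaling was done. The number of arrays limits the precision.

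Values were taken as log2(signal + 16), on which a difference understates changes at low signal. Probe sets with a mean of log2 4.815 or more (signal 12.1), the median of all 54675, were kept (27338). Names came from the platform annotation, where 41097 probe sets had 1 gene, 1801 several and 11777 none. The brightest probe set stood for a gene. Each comparison was fitted within a replicate number with limma 3.58.1 in R 4.3.3 on 11853 genes, with Benjamini-Hochberg adjustment and adjusted p under 0.05 as a call. The fits were tested on simulated data with independent noise of the same spread for every gene and array. Those data held no line effects and no split among the clones, so fits under such conditions were not tested. Promoter windows were aligned with Biopython 1.88.

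The members and gene lists were chosen with earlier results of these data known. From each list the text names up to 4 members, called ones by size first, with TMPRSS2 and FKBP5 always, and for each member the 5 genes with the highest r over 20 cultures. MDV3100 and DMSO arrays of a line and number paired in the data: deviations correlated at 0.254 to 0.913 in all 20 pairs. Alternatives were the pseudocount (1 and 64), no filter, quantile normalization, an intensity trend, other probe sets, a spread shared over all lines, both sets fitted together with line or replicate block, and each line left out. A few listed genes, for which no probe set was named, were not analysed here.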

Additional observations from a re-analysis of the deposited data

Results flagged for a closer look

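The KLK3 level in clones minus control lines differed between the replicate sets by the test of the difference itself, set 2 minus set 1. In DMSO it was 2.55 ± 0.57 (SE, limma's adjusted p 0.00619), from 0.81 in set 2 and -1.74 in set 1. Under MDV3100 it was 2.48 ± 0.89 (SE, limma's adjusted p 0.0374), from 1.09 in set 2 and -1.39 in set 1. The test was chosen after the values were seen, and 23.1% of all genes passed it in DMSO and 34.9% under MDV3100. In 27 groups of values of the members that were searched for a value far from the rest, 0 were found. Each group held the 6 control values of both sets together or the 7 clone values of a set.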

How the results depend on the processing

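Of 542 values of the 3 members under alternative settings, 496 kept direction and side of the threshold, 22 came to pass the test, 5 no longer did and 19 changed sign; unless a value below or the setting's construction shows it, the cause was not tested. In the set 1 control response, KLK2 (-1.98) had limma's adjusted p 0.127 with no filter, 0.115 with an intensity trend and 0.148 with line as the block over both sets (-1.50). That pooled value passed with the replicate block (adjusted p 0.0176), which counts the cultures of a label as independent. Set 2 alone gave -1.02. KLK4 in the set 1 control response was -1.02 on 1555737_a_at. With both sets fitted together, by line or by replicate block, the set 1 DMSO level of KLK4 was -0.0395, the set 2 clone response of KLK4 -0.28, the set 2 DMSO levels of KLK2 and KLK3 -0.18 and -0.47, and the set 2 MDV3100 levels of KLK3 and KLK4 -0.15 and 0.27; these pool sets of opposite sign. The KLK3 DMSO level was -1.69 with pseudocount 64 and -1.74 with an intensity trend in set 1, and 0.95 with quantile normalization, 0.81 with an intensity trend and 1.39 on 204583_x_at in set 2, all called. Likewise called in set 2 were the KLK2 DMSO level with quantile normalization (0.46) and its MDV3100 level with quantile normalization (1.29), an intensity trend (1.26) or 210339_s_at (1.25). KLK4 in MDV3100 of set 2 was 0.21 on 233854_x_at and 0.48 on 231782_s_at. Leaving out each line gave these ranges in set 1: control response of KLK3 -0.93 to -0.50 and of KLK4 -1.11 to -0.60, difference of responses of KLK3 0.11 to 0.54 and of KLK4 -0.0302 to 0.48, DMSO level of KLK2 -0.90 to -0.41 and of KLK3 -2.04 to -1.56, MDV3100 level of KLK2 -0.048 to 0.65. In set 2 they were: control response of KLK2 -1.58 to -0.38, of KLK3 -0.64 to -0.0555 and of KLK4 -0.44 to 0.0625, difference of responses of KLK2 0.29 to 1.49, of KLK3 0.0087 to 0.59 and of KLK4 0.0112 to 0.51, DMSO level of KLK2 0.28 to 0.39, of KLK3 0.46 to 1.22 and of KLK4 -0.79 to -0.29, MDV3100 level of KLK2 0.57 to 1.88, of KLK3 0.75 to 1.46 and of KLK4 -0.64 to 0.14. Counts of called genes moved most: set 1 control response 140 (0 to 1894) and clone response 225 (0 to 345), difference of responses 1 (0 to 1718), DMSO level 727 (14 to 1449), MDV3100 level 1070 (89 to 3020), and in set 2 14 (0 to 300), 0 (0 to 163), 0 (0 to 88), 1220 (9 to 3884) and 2326 (49 to 4733). Fits with a control line left out rest on 2 control lines. For the set 1 control response without control 1 or control 2, the SE was the same for all 3 members (0.29 and 0.23). Those p-values therefore rest on a spread shared over genes.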
